A study of Caenorhabditis elegans with 146 samples.

Results

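The anaphase-promoting complex genes examined here are 8 genes of Caenorhabditis elegans, out of 46927 genes in the deposited counts. These genes were chosen by name, with earlier results of these data known. They comprise 6 core subunits, emb-27, emb-30, mat-1, mat-2, mat-3 and apc-2, and 2 coactivators, fzy-1 and fzr-1. All 8 were found in the gene counts and in the TPM values, and all 8 passed the filter on low counts in each of the 9 comparisons. RNA-seq libraries were made from single gonad segments, single oocytes and single zygotes dissected from well-fed gravid hermaphrodites of strain AZ212, which carries a histone H2B::GFP transgene driven by the germline promoter of pie-1 in all groups. The 8 stages were S1 (mitotic region and transition zone), S2 (pachytene), S3 (the loop, diplotene), S4 (diakinesis), F3, F2 and F1 (the -3, -2 and -1 oocytes) and P0 (the zygote at pronuclear fusion). The libraries marked as used for analysis numbered 19, 17, 17, 11, 6, 13, 15 and 6 in that order, 104 in all. They carry 43 worm labels, and for the P0 libraries labelled unknownA, unknownB and unknown5 the animal is not known. Sheath cells were harvested together with the segments and oocytes.

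The anaphase-promoting complex, or APC/C, is a ubiquitin ligase that marks securin and cyclin B for destruction by the proteasome. The loss of securin frees separase, which cuts cohesin, and chromosomes then separate. In the C. elegans oocyte, this step takes place after ovulation and fertilization, and loss of core subunits arrests the one-cell embryo at metaphase of the first meiotic division. The coactivators bring substrates to the core: CDC20, encoded by fzy-1, acts at the transition from metaphase to anaphase, and CDH1, encoded by fzr-1, acts late in mitosis and in G1 phase.

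Among the core subunits, mat-2 encodes APC1, a large scaffold protein, and lies on chromosome II, positions 11112719 to 11120805 of WBcel235. emb-30 encodes APC4, a scaffold subunit, at chromosome III, 9435507 to 9441460. The genes of the subunits with tetratricopeptide repeats were mat-1 (CDC27, chromosome I, 5123915 to 5127201), emb-27 (CDC16, chromosome II, 8159865 to 8162170) and mat-3 (CDC23, chromosome III, 475454 to 482325). apc-2 encodes the cullin subunit that holds the catalytic RING protein, at chromosome III, 8080629 to 8083701. The coactivator genes were both on chromosome II, fzy-1 at 5500770 to 5503912 and fzr-1 at 9640156 to 9644466. No member shared exon bases with another gene on its own strand. Exons on the opposite strand covered at most 3.00% of the exon bases of a member, in emb-27, which overlaps pch-2 by 61 bases.

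Used libraries held 1273040 to 73449925 reads on genes, with stage medians of 2771320 to 5745780 reads, and the median raw count of a member in a stage was between 62.0 and 1336. By the quality table, batch A held 82 libraries and batch B the other 22. Batch B held 2 to 5 libraries of each stage and was deeper, with a median of 14681400 reads, against 2859940 reads in batch A. The 6 germline markers had nonzero medians in every stage, and their summed TPM had a median of 2607 in F1, against 335 in S1, mostly through oma-1, oma-2 and rme-2. The median of pgl-1 was 66.7 TPM in F1, against 68.5 TPM in S1. The summed TPM of 5 gonadal sheath markers had medians of 10.9 in S1, 25.7 in S2, 72.7 in S3, 209.6 in S4, 307 in F3, 734 in F2, 679 in F1 and 2.99 in P0, mostly from inx-8, while no stage median of lim-7 exceeded 2.33 TPM and none of ceh-18 exceeded 0.604 TPM. The 3 spermatheca markers had summed medians of 33.7 to 95.2 TPM, mostly from fln-1 in all stages but F1, and the median of sth-1 was 10.7 TPM in F1 and 0 in the other stages. Sperm markers had a median of 0 in 5 stages, with 223 TPM in the highest -1 oocyte. Summed intestine markers had medians of 0.915 TPM in F3 to 24.6 TPM in P0 and reached 1783 TPM in 1 -1 oocyte. Those of the yolk protein genes vit-2 and vit-6 were above 0 in every stage, at 17.01 TPM and 7.54 TPM in P0, and that of elt-2 was 0 throughout. The part of these other cell types in the values of the members was not tested. Fewer cells of a type and less RNA per cell cannot be told apart in these libraries.

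Transcripts of all 8 members were present in every stage. Per length, in TPM (transcript share by length), mat-1 had the highest stage median of the 8 in the gonad segments, with 36.5 TPM in S1, 58.4 TPM in S2, 107 TPM in S3 and 137 TPM in S4. fzy-1 had the highest in the oocytes and zygotes, with 124 TPM in F3, 149 TPM in F2, 126 TPM in F1 and 114 TPM in P0. The leading member thus differed between the segments and the later stages. The lowest median was that of fzr-1 in S1, at 12.9 TPM, and that of mat-3 in all other stages, at 10.2 TPM in F1 and 22.6 TPM in S4. The highest member exceeded the lowest by 12.4-fold in F1 and by 2.82-fold in S1. Spike-ins entered the TPM of a library, with stage medians of 0.126% to 1.97% and 19.3% in the highest library.

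Stages were compared by normalized count, that is, reads divided by a size factor per library. fzy-1 had the widest difference between stages among the 8. Its normalized counts had a median of 515 in S1 libraries (31.4 to 947), 559 in S2 libraries (355 to 744), 808 in S3 (456 to 1250) and 963 in S4 (367 to 2028). In the oocytes the median was 1146 in F3 (864 to 1882), 1289 in F2 (958 to 4181) and 1185 in F1 (383 to 1914). In P0 it was 848, with a lowest library of 148 and a highest of 2256. The medians were ordered F2, F1, F3, S4, P0, S3, S2 and S1 from high to low, and the ranges of neighbors in this order overlapped. The ranges of S1 and F2 did not overlap, nor did that of S2 with F3 or F2. The place of P0 rested on 2 batch B libraries with a median of 366: in batch A alone its median was 1299, the highest of the 8 stages, against 1154 in F2. No used library was without a read of fzy-1.

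The tetratricopeptide subunit gene mat-1 had its highest medians in the loop and the diakinesis segment. Its normalized counts had a median of 715 in S1 libraries (356 to 2318), 900 in S2 libraries (506 to 1427), 1303 in S3 (993 to 1630) and 1302 in S4 (152 to 1630). The medians were 969 in F3 (811 to 1063), 760 in F2 (169 to 1494), 754 in F1 (399 to 1397) and 559 in P0 (113 to 842). The values in S3 and F1 overlapped, as did those in S2 and S3, while all S3 values were above all P0 values.

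The scaffold genes emb-30 and mat-2 and the tetratricopeptide gene emb-27 had ratios of 1.45 to 1.57 between their highest and lowest stage medians. The median of emb-27 was between 349 in F2 and 507 in P0, a ratio of 1.45. That of emb-30 was between 315 in F2 and 476 in F3, a ratio of 1.51. That of mat-2 was between 469 in F2 and 735 in S2, a ratio of 1.57. In each of the 3 genes the lowest stage was F2, and the libraries of the highest and lowest stage overlapped. In batch A alone, P0 had the highest median of all 3, and the lowest was in F2 for emb-27 and emb-30 and in F3 for mat-2.

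The cullin gene apc-2 had a median normalized count of 377 in S1 libraries (120 to 1518), 503 in S2 libraries (140 to 1111), 439 in S3 (108 to 938) and 431 in S4 (122 to 1150). The medians were 292 in F3 (103 to 367), 288 in F2 (9.66 to 638), 366 in F1 (130 to 783) and 261 in P0 (94.0 to 460). The ranges of all stages overlapped. In batch A alone, the highest median of apc-2 was 503 in S2 and the lowest 319 in F3, with 378 in P0. mat-3 was the member with the fewest reads, and its stage medians were between 63.1 in F3 and 150 in S1, a ratio of 2.38 that was exceeded only by that of fzy-1. In batch A alone, those of mat-3 were between 73.2 in F3 and 161 in S1.

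The CDH1 gene fzr-1 had a median normalized count of 255 in S1 libraries (1.62 to 515), 337 in S2 libraries (215 to 999), 273 in S3 (24.2 to 658) and 357 in S4 (42.1 to 569). The medians were 340 in F3 (14.97 to 686), 397 in F2 (0.878 to 520), 285 in F1 (74.97 to 652) and 289 in P0 (41.8 to 407). These stage medians over both batches differed by at most 1.55-fold, against 2.50-fold for fzy-1. In batch A alone, F1 had the highest median of fzr-1, at 430, and S3 the lowest, at 276.

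**Figure D1:**
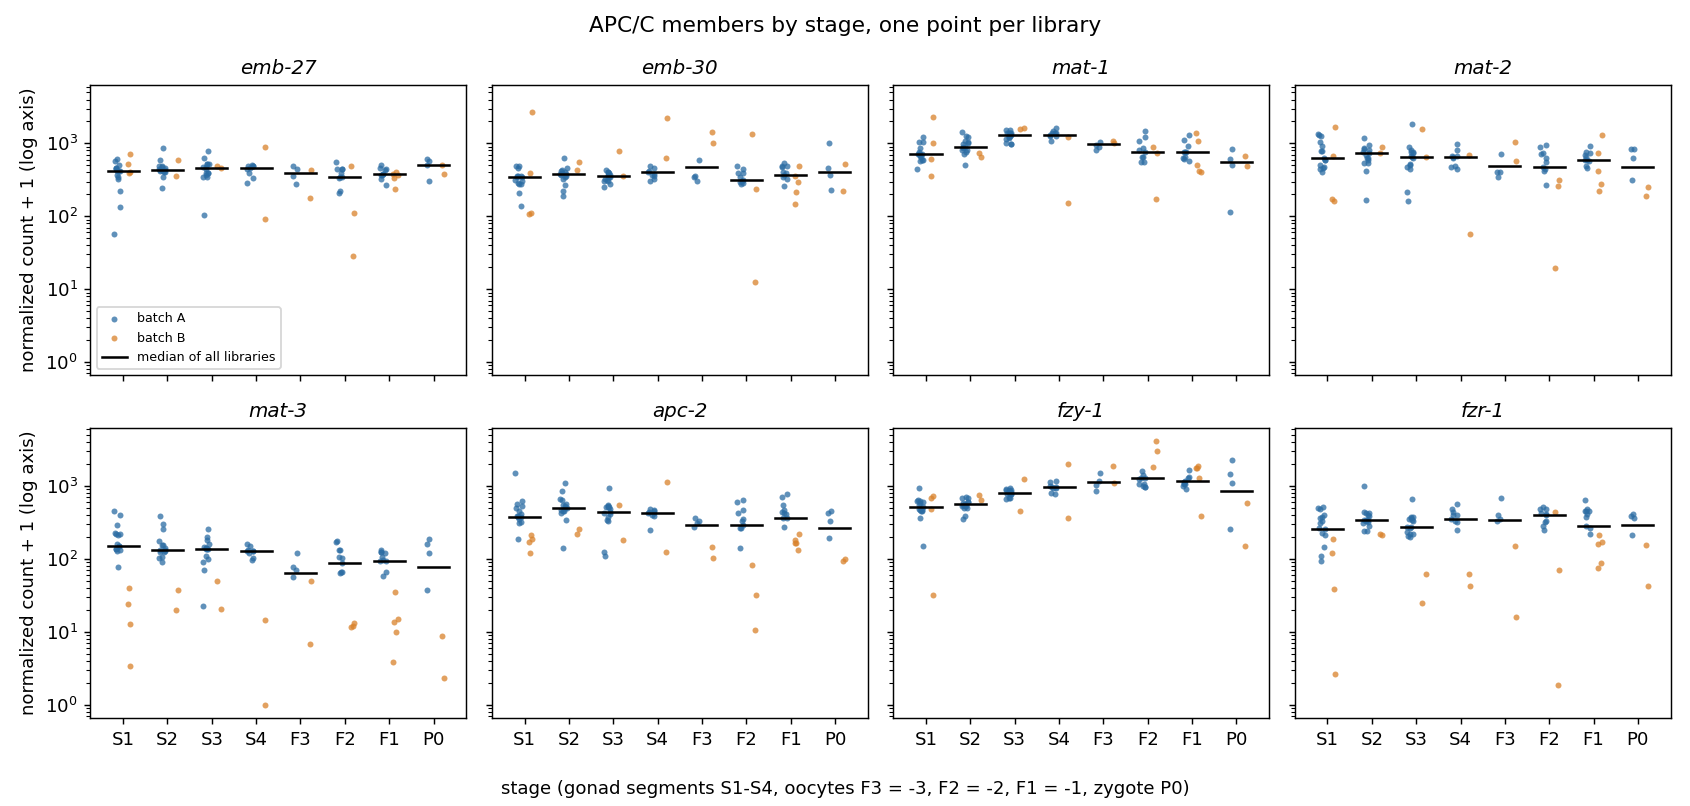
Normalized count plus 1 (log axis) of the 8 members in each used library, by stage from S1 to P0, with batch A in blue, batch B in orange and the median of both as a black line. The median of fzy-1 was 1289 in F2, against 515 in S1, those of mat-1 were highest in S3 and S4, and mat-3 and fzr-1 lay lower in batch B than in batch A in all 8 stages.

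The members mat-3, fzr-1 and apc-2 had lower values in batch B. For mat-3, every batch B library was below every batch A library in 7 of the 8 stages. In S1, its normalized counts were 2.43 to 38.8 in 4 batch B libraries, against 76.2 to 459 in 15 batch A libraries. In S4, they were 0 and 13.4 in the 2 batch B libraries, against 95.8 to 157 in 9 batch A libraries. The median over stages of the difference in medians was 8.01-fold. For fzr-1, batch B was lower in all 8 stages, without overlap in 6, and the difference was 4.25-fold. For apc-2, it was lower in 7 stages, without overlap in 4, and the difference was 2.38-fold. For mat-2, it was lower in 5 stages, without overlap in 1, and the difference was 1.49-fold. fzy-1 was lower in batch B in 1 stage only, P0, and the median log2 differences of emb-27, emb-30 and mat-1 (batch B over batch A) were 0.01, 0.12 and -0.02.

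Batch B also differed in library quality. A median of 90.5% of its uniquely mapped reads fell on coding sequence, against 78.9% in batch A, and a median of 16.6% of genes were detected, against 18.5% in batch A. The part of these measures in the lower values was not tested. The spread between libraries of a stage was wider as well: the pooled SD of the log2 normalized count within stages was 0.91 (apc-2) to 2.15 (fzr-1) in batch B, against 0.39 (emb-30) to 0.63 (mat-3) in batch A. The comparisons between stages therefore carried batch as a covariate.

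Neighboring stages were compared to ask which genes change at each step of oogenesis. edgeR's quasi-likelihood test was used with terms for batch and for the detection rate (the share of genes with a read), and passing required a fold change above 1.5 and an adjusted p under 0.05 (Benjamini-Hochberg, all genes tested). None of the 8 members passed at any of the 7 steps. The background was 14.6% of all genes tested in S2 vs. S1, 20.6% in S3 vs. S2, 7.65% in S4 vs. S3 and 1.39% in F3 vs. S4. It was 0% in F2 vs. F3, 0.158% in F1 vs. F2 and 5.97% in P0 vs. F1. At an unadjusted p under 0.05, 1 member was found in S2 vs. S1, 2 in S3 vs. S2, 0 in S4 vs. S3, 1 in F3 vs. S4, 0 in F2 vs. F3, 1 in F1 vs. F2 and 1 in P0 vs. F1. The share of all genes at that limit was 31.9%, 31.5%, 23.3%, 11.2%, 1.96%, 4.46% and 14.2% in the same order. DESeq2 likewise called 0 members at each of these steps.

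The step from pachytene to the loop came closest. fzy-1 was higher in S3 than in S2 by 0.46 in log2 (SE 0.16, edgeR adjusted p = 0.0321), which was under the 1.5-fold limit. Within batch A the difference was 0.48 (adjusted p = 0.0146), and with worm as a block over the 9 worms that gave both stages it was 0.31 (adjusted p = 0.522). That block fit called 33 of 6128 genes. Over 14 alternatives the adjusted p was between 0.000788 and 1.00. mat-1 differed by 0.50 (SE 0.19, edgeR adjusted p = 0.0574) in the same comparison. The other 6 members had log2 differences of -0.40 to 0.28. The share of genes detected was 10.7% to 17.8% in S2 libraries and 15.1% to 22.7% in S3 libraries, so the detection term overlapped in part with stage. Without that term a member passed at this step, where 31.8% of all genes tested did.

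At the other steps the size of a change that these libraries leave possible varied from step to step. In S2 vs. S1, the log2 differences of the 8 members were 0.01 to 0.51, all positive, with a median of 0.17, against -0.04 over all genes tested. Their 95% intervals reached from -0.44 to 1.07. In S4 vs. S3, the differences were -0.43 to 0.20. In F3 vs. S4 they were -0.94 to 0.27 and in F2 vs. F3 -0.46 to 0.34, with intervals from -1.79 to 1.296 over both steps. In P0 vs. F1 they were -0.70 to 0.39. On simulated counts of that comparison only 2 of 99 genes changed by 1 in log2 were recovered, so a difference of this size can be missed there. The simulated counts held few changed genes and no batch or detection effect, so recovery in the data can differ.

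apc-2 was the member at an unadjusted p under 0.05 in 4 of these steps. Its log2 difference was 0.39 in S2 vs. S1 (SE 0.18), -0.94 in F3 vs. S4 (SE 0.43), 0.87 in F1 vs. F2 (SE 0.33) and -0.70 in P0 vs. F1 (SE 0.29). The edgeR adjusted p was 0.123, 0.433, 0.93 and 0.221, so none of the 4 passed.

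The ends of oogenesis were compared with S1 in the same way. The share of genes detected was 10.7% to 17.6% in S1 libraries, 16.8% to 26.0% in F1 and 15.4% to 20.6% in P0. The term for the detection rate thus overlapped with stage, and these fits can tell the 2 apart only in part. In F1 vs. S1, 1 of the 8 members passed, where 36.9% of all genes tested did. apc-2 was higher in -1 oocytes by 0.71 in log2 (SE 0.29, edgeR adjusted p = 0.0481). The call depended on the fit: without the term for the detection rate the log2 difference was -0.10 (adjusted p = 0.677), and with worm as a block over 7 worms it was 0.25 (adjusted p = 0.943). Over 14 alternatives the log2 difference was between -0.29 and 1.41 and the adjusted p between 0.00409 and 0.943. The uncorrected medians were 366 in F1 and 377 in S1 over both batches, and 430 in F1 and 392 in S1 within batch A.

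fzy-1 had the larger difference in this comparison, 0.97 in log2 (SE 0.42), but missed the threshold with an edgeR adjusted p of 0.0638. Its normalized counts averaged 1260 ± 401 in F1 and 518 ± 200 in S1 (SD, n = 15 and 19). It passed within batch A (0.85, adjusted p = 0.0409), with DESeq2 (1.12, adjusted p = 0.0243) and without the detection covariate (1.18, adjusted p = 5.18e-05). With worm as a block the estimate was -1.13 (adjusted p = 0.614), and that fit called 3 of 5844 genes over the whole transcriptome. Over 14 alternatives the adjusted p was between 5.18e-05 and 0.831. The other 6 members had log2 differences of -0.65 to 0.68. The median of the 8 was 0.21, against 0.15 over all genes tested.

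In P0 vs. S1, 0 of the 8 members passed with edgeR and 0 had an unadjusted p under 0.05, where 31.1% of all genes tested passed. DESeq2 called 0 as well. The log2 differences were -0.89 (mat-3) to 0.67 (emb-30), with SEs of 0.37 to 0.60. P0 held 6 libraries, and intervals of single members reached from -2.07 to 1.82.

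**Figure D2:**
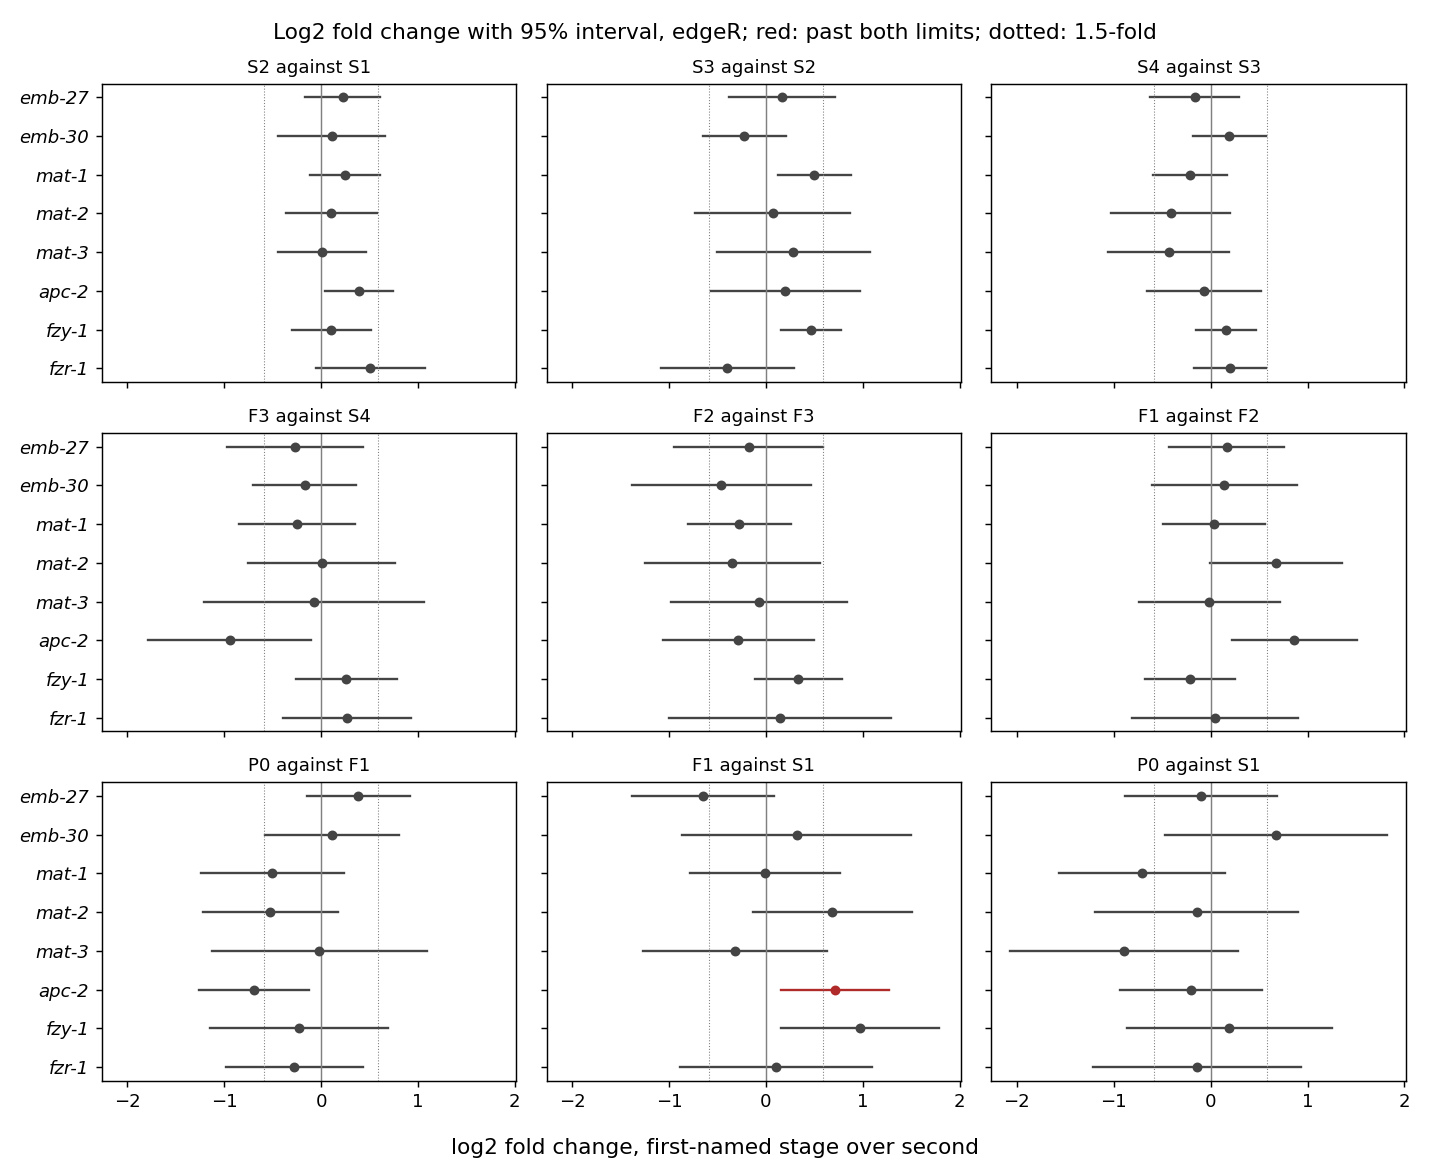
Log2 fold change of each member with its 95% interval in the 9 comparisons, the first-named stage over the second, with the 1.5-fold limits as dotted lines and the member past both limits in red. Only apc-2 in F1 against S1, at 0.71, was past both limits, and in that comparison the interval of emb-30 was the widest (SE 0.603).

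The balance of the coactivators was described within each library, where scaling between libraries cancels. The TPM of fzy-1 exceeded that of fzr-1 in 103 of 104 libraries. The median log2 ratio was 1.82 in S1, 1.28 in S2, 2.18 in S3 and 1.94 in S4. It was 2.35 in F3, 2.19 in F2, 2.41 in F1 and 2.38 in P0. The highest median was thus in -1 oocytes, where fzy-1 was 5.33-fold above fzr-1, and the lowest in pachytene, at 2.43-fold. Means with their SD were 2.74 ± 1.15 in F1 (n = 15) and 1.297 ± 0.69 in S2 (n = 17). The median ratio was higher in batch B than in batch A in 7 of 8 stages, the exception being P0, at 2.28 in batch B and 2.38 in batch A. With counts in place of TPM, fzy-1 exceeded fzr-1 in 101 libraries, and the medians of P0 and F3 (1.70 each) were above that of F1 (1.68). In batch A alone the median was 1.37 in S1, 1.27 in S2, 2.15 in S3, 1.93 in S4, 2.04 in F3, 2.14 in F2, 2.06 in F1 and 2.38 in P0. No test was made of the ratio.

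**Figure D3:**
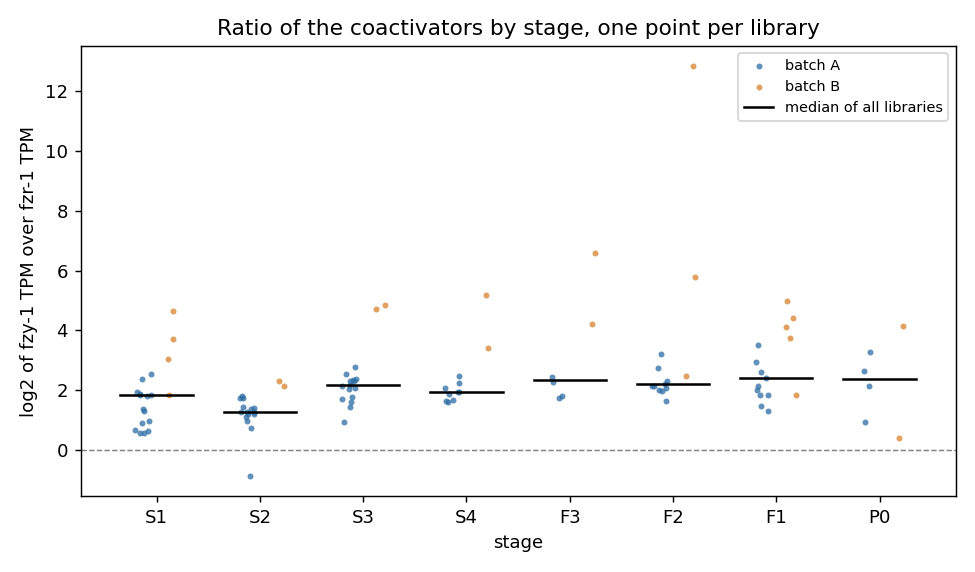
Log2 of the TPM of fzy-1 over that of fzr-1 in each used library, by stage, with batch A in blue, batch B in orange, the median of both as a black line and equal TPM as a dashed line. All but 1 library, in S2, lay above 0, and batch A medians were 1.37 in S1, 1.27 in S2 and 1.93 to 2.38 from S3 on.

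The remaining subunits included the gene with the clearest change. APC5 is encoded by a pair of genes in C. elegans, such-1 (chromosome III, 11512862 to 11523759) and gfi-3 (chromosome X, 14480572 to 14484702). gfi-3 had no read in 12 of 19 S1 libraries and in 10 of 17 S2 libraries, and at most 25.4 normalized counts in the rest of them. In S3 its median was 89.0, with 1 of 17 libraries without a read and a highest of 233. All later libraries had reads, with medians of 165 in S4, 116 in F3, 114 in F2, 148 in F1 and 163 in P0. gfi-3 was higher in S3 than in S2 by 4.91 in log2 (SE 0.70, edgeR adjusted p = 1.78e-06). It did not pass the filter on low counts in S2 vs. S1, so it entered the comparisons with S1 or S2 mainly through the later stage. It was also higher in F1 and in P0 than in S1 (edgeR adjusted p = 3.23e-05 and 0.000936). With so few reads in S1 and S2 the fitted fold depends on the prior count and gives no bound. In S3 vs. S2, 10 of 14 alternatives gave a value for gfi-3, from 2.65 to 5.85 in log2, with adjusted p between 3.73e-11 and 0.688. The block by worm was among those that gave none.

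The other APC5 gene, such-1, was present throughout, with medians of 341 in S1, 401 in S3, 256 in S4 and 331 in P0. It was lower in S4 than in S3 at a log2 difference of -0.65 (SE 0.19, edgeR adjusted p = 0.0345). The call was lost with median-of-ratios factors (adjusted p = 0.0936). With worm as a block the value was -0.37 (adjusted p = 1.00), but that fit called 0 of 7092 genes, so no call could be kept there. Per length, gfi-3 stayed below such-1 in the median of each stage: 9.59 TPM for gfi-3 in S3, against 49.8 TPM for such-1, and 13.5 TPM for gfi-3 in F1, against 25.7 TPM for such-1.

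**Figure D4:**
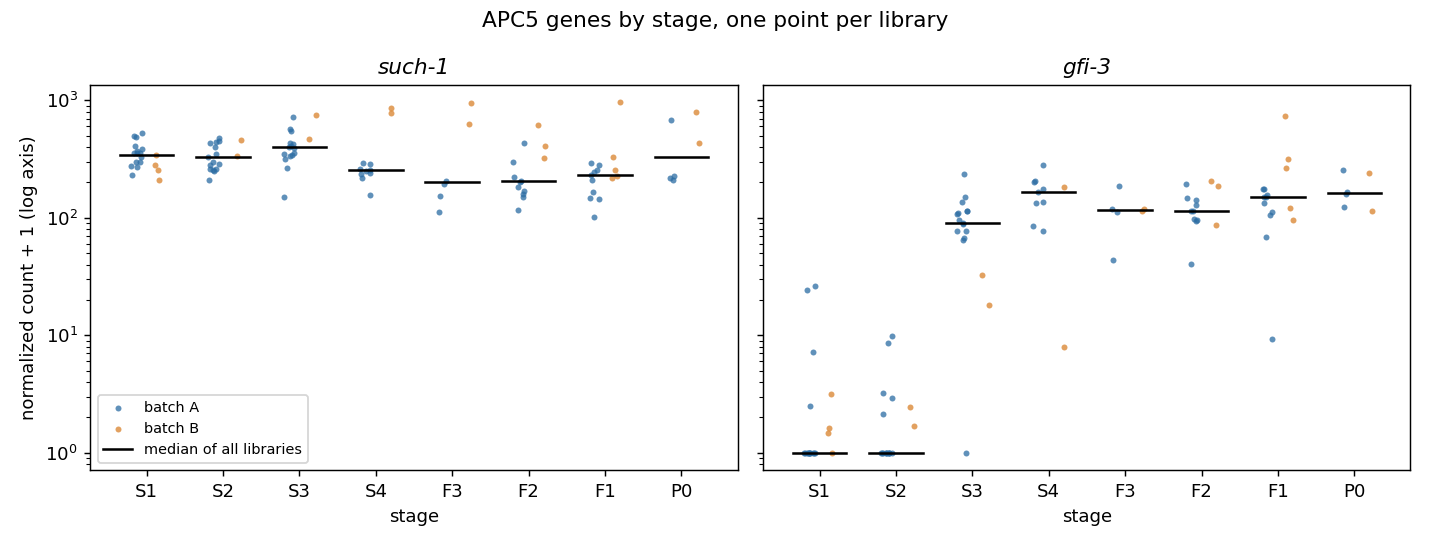
Normalized count plus 1 (log axis) of such-1 and gfi-3 in each used library, by stage, with batch A in blue, batch B in orange and the median of both as a black line. gfi-3 had a median of 0 in S1 and S2 and of 89.0 to 165 from S3 on, while such-1 had reads in every library.

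Of the 7 other subunits listed, 5 or 6 were tested in each comparison and apc-17 in none. apc-10, whose product helps bind substrates, was lower in F1 than in S1 by a log2 difference of -1.21 (SE 0.27, edgeR adjusted p = 0.00039), with medians of 480 in F1 and 1454 in S1. It was -0.47 with worm as a block (adjusted p = 0.87), in a fit that called 3 of 5844 genes. The other calls in this list were those of gfi-3 and such-1.

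The spindle checkpoint holds the APC/C inactive until kinetochores are attached. Of its 9 listed genes, 2 passed in S2 vs. S1 and both were higher: czw-1 by 0.65 and rod-1 by 0.59 in log2 (edgeR adjusted p = 0.00785 and 0.0352), which encode proteins of the RZZ complex. The rod-1 call was lost with worm as a block (0.40, adjusted p = 0.332). In S3 vs. S2, mdf-2, which encodes MAD2, was higher by 1.08 (edgeR adjusted p = 0.00066), with medians of 863 in S3 and 266 in S2. With worm as a block the value was 1.21 (adjusted p = 0.0836), in a fit that called 33 of 6128 genes. In P0 vs. F1, spdl-1, a recruiter of dynein, was lower at -1.87 (edgeR adjusted p = 0.0432). Its call was lost when the P0 library labelled unknownA, 4, 9 or unknown5 was left out (adjusted p = 0.0839, 0.094, 0.0766 and 0.0621). In F1 vs. S1, czw-1 was higher and mdf-1, which encodes MAD1, was lower at -1.17 (edgeR adjusted p = 0.00758). Both calls were lost with worm as a block, czw-1 at -1.01 (adjusted p = 0.638) and mdf-1 at -2.22 (adjusted p = 0.415), in a fit that called 3 of 5844 genes. In P0 vs. S1, 2 genes were higher and 2 lower, the largest being spdl-1 at -2.11, czw-1 at 1.43 and mdf-1 at -1.19. The counts of these 9 genes that passed, 2 in S2 vs. S1, 2 in F1 vs. S1 and 4 in P0 vs. S1, stand beside 14.6%, 36.9% and 31.1% of all genes tested.

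Securin and the cyclins are substrates of the APC/C, and transcripts of several of them were higher in -1 oocytes and zygotes than in S1. Of 8 listed substrates and partners, 6 were higher and 0 lower in F1 vs. S1, and 4 were higher and 0 lower in P0 vs. S1, where 21.6% and 19.6% of all genes tested were higher. The list median was 1.14 in F1 vs. S1, against 0.15 over all genes, and 1.39 in P0 vs. S1, against 0.24 over all genes. This list was drawn up with earlier results of these data known. The counts and medians therefore describe it and test no enrichment. The B3-type cyclin gene cyb-3 had a median normalized count of 7578 in F1 and 1358 in S1, a log2 difference of 2.35 (SE 0.30, edgeR adjusted p = 8.69e-08), and the value in P0 vs. S1 was 2.76. cyb-2.2 and cyb-2.1 were higher in F1 by 2.23 and 1.51, but these cyclin genes are alike in sequence, and reads that fit both cannot be assigned to either. Both are counted among the 6 higher genes. In P0 vs. S1, cyb-1, a B-type cyclin gene, was higher by 1.83 and ify-1, which encodes securin, by 1.75. With worm as a block none of the 6 passed in F1 vs. S1, at adjusted p of 0.458 to 0.998, and cyb-2.2 was at -2.70. That fit called 3 of 5844 genes, against 2266 in the main fit, so most calls of any kind were lost there.

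Between neighbors, cyb-2.2 and cyb-3 were higher in S2 than in S1 (1.07 and 0.60 in log2), and cyb-3, cyb-1 and ify-1 in S3 than in S2 (1.04, 0.60 and 0.59). Of all genes tested, 6.93% and 15.8% were called higher at these steps. The S3 calls were lost with worm as a block, at adjusted p of 0.498, 0.661 and 0.398, in a fit that called 33 of 6128 genes. The gene of separase, sep-1, was lower in F3 than in S4 at -1.20 (SE 0.26, edgeR adjusted p = 0.0168), with medians of 287 in F3 and 551 in S4. With worm as a block the value was -1.81 (adjusted p = 0.822), but that fit called 0 of 6890 genes, so no call could be kept there. The edgeR call of sep-1 was lost without the F3 library of worm 33 (adjusted p = 0.0709) or worm 28 (adjusted p = 0.0508). In S4 vs. S3, F2 vs. F3, F1 vs. F2 and P0 vs. F1 edgeR called none of the 8, with 1, 0, 0 and 2 of them at an unadjusted p under 0.05. The share of all genes at that limit was 23.3%, 1.96%, 4.46% and 14.2% in this order.

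Across the 104 libraries the members did not follow each other closely. Over the 28 pairs, Pearson's r of the log2 normalized count had a median of 0.23, from -0.29 for emb-30 and fzy-1 to 0.64 for mat-3 and fzr-1, a pair that was low in batch B. Within stages of batch A, over 82 libraries, the median was 0.22 and the highest was 0.62, for mat-2 and apc-2. These points share libraries, batch and depth, and are given as a description.

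Of 5545 other genes averaging 50 or more normalized counts, those most like mat-3 were Y48C3A.14, cpf-1 and rha-2 (r = 0.89, 0.89 and 0.88). Those most like fzr-1 were ints-6, prp-17 and lag-1 (0.79, 0.79 and 0.78), and like apc-2 cdk-11.1, pnk-1 and eor-1 (0.78, 0.78 and 0.76). For fzy-1 they were vamp-7, dhhc-6 and cpt-1 (0.73 each). For mat-1 they were cul-5, dpf-5 and vnut-1 (0.72, 0.65 and 0.61) and for mat-2 drh-1, vkmt-1 and C47E12.3 (0.65, 0.61 and 0.56). For emb-27 they were B0361.3, F35G12.5 and gip-1 (0.70, 0.67 and 0.65) and for emb-30 Y32B12B.4, eif-2D and tag-65 (0.71, 0.68 and 0.63). No member was among the 3 genes most like another member. These r values cover both batches, and mat-3, fzr-1 and apc-2 were lower in batch B. Their r with the log2 depth of a library was -0.67, -0.55 and -0.54. The part of batch and depth in these likenesses was not tested.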

How the data were processed

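Per the labels and the study's methods, the authors trimmed reads with Trim Galore, aligned them with HISAT2 to WBcel235 and counted reads per gene with HTSeq at default settings. The deposited counts are not normalized. The deposited TPM were made by the authors with Salmon and include 92 spike-ins. The deposited fractions, batch and use of each library come from the authors' quality table. Library protocols differed, but which batch used which is given in conflicting ways and was not used.

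Stages and worms came from the sample labels. The 104 used libraries of 135 stage libraries entered the comparisons, while 9 early embryos and 2 mixed-segment libraries did not. No 2 libraries had identical counts. The members and gene lists were chosen with earlier results of these data known. Named are all 8 members, list genes that passed (at most the 3 largest changes per list and comparison) and the 3 genes most like each member.

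Genes of the mitochondrial genome (36), rRNA genes (20) and 741 genes correlated above 0.99 with an msp gene were left out. The scale of this correlation was chosen after the files were examined: 12 forms were counted, which removed 31 to 831 genes, and the form nearest an earlier processing of these data was taken in place of the first written, which removed 62. edgeR 4.0.16 in R 4.3.3 (filterByExpr at a minimum count of 10, TMM, robust quasi-likelihood F test, two-sided) was fitted to each pair of stages, with p-values adjusted over all genes. SE is the absolute log2 fold change over the square root of F. Normalized counts were divided by median-of-ratios factors over 3648 genes. On simulated counts, 75 of 98 genes changed by 1 in log2 were recovered in S2 vs. S1 and 2 of 99 in P0 vs. F1, with 5 and 1 false calls.

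Alternatives were DESeq2 1.42.0, limma 3.58.1 on log2(TPM + 1) and log2(TPM + 0.1), other scalings, filters, covariates, libraries and batches, and worm as a block. The pairing comes from the worm in the labels. Residuals of same-worm libraries had a mean correlation of 0.06 to 0.44 over the comparisons with such pairs, against -0.03 to 0.00 for different worms. Intervals of 95% use the normal approximation. Python 3.11.15, numpy 2.4.6, pandas 2.3.3 and matplotlib 3.10.9 were used for the other steps. Libraries of different named worms are separate animals per the labels. For the P0 libraries labelled unknownA, unknownB and unknown5 this is not known. Intervals cover the spread between libraries and not the choice of fit.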

Additional observations from a re-analysis of the deposited data

Results flagged for a closer look

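In P0, emb-30 had a normalized count of 1007 in the library labelled unknown5, against 515 in the next highest of 6. This set the library apart from the others of its group. It is the deepest library of all. Of 16 groups tested in this way (8 members in F3 and P0) it was the only one, and chance alone gives about 1 in 20.

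Members were also detected in 9 early embryo libraries that enter no comparison, none of which is marked as used. More than 3 reads were found in 9 of 9 for emb-27, mat-1 and fzy-1, in 8 for mat-2 and mat-3, in 7 for apc-2, in 5 for fzr-1 and in 2 for emb-30. The median TPM was 100.5 for fzy-1 (14.3 to 2014), 85.2 for emb-27 (2.08 to 179) and 0 for emb-30 (0 to 3.22). Unique mapping in these libraries was 17.2% to 85.6%.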

How the results depend on the processing

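Of the counts of members called, 18 moved. In F1 vs. S1 the count was 2 with DESeq2, with median-of-ratios factors and without the detection covariate, 3 with each of the limma fits, 4 with all mapped libraries, and 0 without a low-count filter, in batch B alone and with worm as a block, where these fits called 41.9%, 37.8%, 59.2%, 37.4% to 43.1%, 42.1%, 26.3%, 4.38% and 0.0513% of all genes. In P0 vs. S1 it was 2 with all stages in one fit and 1 with all mapped libraries (48.2% and 28.5% of all genes). It was 1 in S2 vs. S1 with all mapped libraries (7.03% of all genes) or limma on log2(TPM + 1) with or without spike-ins (16.6% each), 1 in S3 vs. S2 without the detection covariate (31.8%), and 1 in S4 vs. S3 with limma on log2(TPM + 1) with or without spike-ins (24.9% and 23.1%). Leaving out any F3 or P0 library gave 0 throughout. No paired fit was possible for P0, which shares fewer than 3 worms with F1 or S1. The highest stage of a member stayed the same for 5 of 8 members with all mapped libraries, 3 in batch A alone and 2 in batch B alone.

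Signs changed as follows, with log2 values. In F1 vs. S1, apc-2 was -0.10 without the detection covariate and -0.29 with all mapped libraries, mat-2 was -0.35, -0.064 and -0.48 without that covariate, in one fit and with all mapped libraries, and with worm as a block fzy-1 was -1.13, mat-3 0.75, cyb-2.2 -2.70 and czw-1 -1.01. mat-3 was 0.45, 0.37 and 0.53 with the limma fits (TPM + 1, + 0.1 and without spike-ins). mat-1, at -0.01, was 0.17 with DESeq2 and with median-of-ratios factors, 0.042 without a filter, 0.033 with no genes left out, 0.28 in batch B, and 0.69, 0.71 and 0.77 with those limma fits. In P0 vs. S1, mat-1 was 0.066, 0.073 and 0.10 with them, mat-3 was 0.11 with log2(TPM + 1) and 0.14 without spike-ins, and fzy-1 was -1.04 in batch B and between -0.28 (without P0 worm 4) and 0.55 when 1 P0 library was left out. In S3 vs. S2, fzr-1 was 0.10 in batch A and 0.26 with worm as a block. In S4 vs. S3, such-1 was 0.028 in batch B. The causes were not tested.

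The median log2 difference over all genes in F1 vs. S1 was 0.15 with TMM, 0.31 with median-of-ratios factors and 0.62 with limma on log2(TPM + 1). Called genes there were 2266, and 3 with worm as a block. The block called 33 in S3 vs. S2, against 1278, and 92 in F2 vs. F3, against 0. It called 0 in S4 vs. S3 and 0 in F3 vs. S4, against 541 and 99. The fits on the first form of the msp rule and without spike-ins were added after the data were seen, and the first form changed no member's call. F3 and P0, with 6 libraries each, and batch B, with 2 to 5 per stage, limit what could be detected.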
